A study of Homo sapiens with 4 samples.

Results

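The gene expression of 2 mantle cell lymphoma lines, Z138 and Mino, was compared in the state given by the control vector. The comparison rested on 2 of the 4 libraries of the study, chosen by the line and vector in their labels, with 1 library for each line. The table listed 25277 gene symbols, and the 11484 symbols whose average over the 4 libraries reached 1 FPKM were carried forward. FPKM is the number of sequenced fragments scaled to transcript length and to library size, so it allows levels to be set side by side between genes.

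All 4 cultures were grown in RPMI1640 with 20% fetal bovine serum and penicillin and streptomycin, and all carried a Tet-on vector and received doxycycline for 48 hours. The control groups carried the control vector named SC4, and the labels do not say what it expressed. The other 2 libraries came from the same lines with an inducible hairpin against BTK, and they served here only to show whether a difference between the lines was repeated. Nothing in the labels says whether each stable line was 1 clone or a pool of transfected cells.

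Mantle cell lymphoma arises from mature B cells and is known for a translocation that places the cyclin D1 gene CCND1 under an immunoglobulin enhancer. Its cells depend on signals that run from the B cell receptor through the kinase BTK to NF-kB, and on proteins of the BCL2 family that hold back apoptosis. Cell lines derived from it differ in how far they lean towards a B cell or a secretory, plasma cell programme, and in which tumour suppressor genes they still express.

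The cell type labels were checked first. The B cell genes were present in every library. CD79A, a chain of the B cell receptor complex, was at 725 FPKM with the control vector and 744 with the hairpin in Mino, against 590 and 557 in Z138. Values are given in this order throughout, control library before hairpin library. SOX11, the transcription factor typical of mantle cell lymphoma, was at 23.6 and 21.5 FPKM in Mino, against 19.8 and 22.1 in Z138, so the lines overlapped.

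Cyclin D1 went against the label of one line. CCND1 was at 3.18 and 2.62 FPKM in the 2 libraries labelled Mino, and at 591 and 600 FPKM in the 2 labelled Z138. CCND2, the cyclin that can take its place in this lymphoma, was below 0.01 FPKM in each library. CCND3 was at 28.4 and 31.5 FPKM in Mino, against 15.3 and 13.6 in Z138. CD5, a surface protein that most mantle cell lymphomas carry, was at 2.33 and 1.70 FPKM in Mino, against 0.0751 and 0.0531 in Z138. The libraries labelled Mino thus lacked the defining cyclin at the level seen in Z138. A check of the labels against what is known of the donors of the lines did not match in 2 libraries. The identity of the libraries labelled Mino is therefore in doubt, Mino below means the libraries so labelled, and each direction given here is one between libraries as labelled.

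Markers of other cell types were low. Summed over 14 genes, T cell markers came to between 17.0 and 26.3 FPKM in a library, and myeloid markers to between 1.81 and 4.57. Epithelial markers summed to 43.0 and 39.0 FPKM in Mino and to 3.37 and 2.85 in Z138, mostly from the keratin gene KRT8 with 25.5 and 22.5 FPKM in Mino. Of 9 such genes 4 passed the filter on low values, of which 3 were at least 2-fold lower in Z138, and any part of other cells in the differences given here was not tested. Exact zeros in the table were not always true absences, since EEF1A1, a translation factor that every cell uses, had 0 FPKM in 1 library, the Z138 control, against 6404 to 6976 in the others, and TUBB, which encodes tubulin, had 0 in each library. The share of all FPKM taken by ribosomal protein genes was 36.9% to 44.8%, with the higher shares in Z138, and the number of reads is unknown.

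With 1 library per line there is no test for the control pair, so genes were sorted by the size of the log2 ratio, taken on the log2(FPKM + 1) scale, which understates the change of low genes. In Z138, 1345 symbols (11.7%) were at least 2-fold higher than in Mino and 2188 (19.1%) were at least 2-fold lower. At 4-fold there were 329 higher (2.86%) and 763 lower (6.64%). A symbol expressed in only one line passes the filter and has to differ, so these counts describe the table and are the background for the gene lists. The median log2 ratio over all symbols was -0.15, and it was -0.27 with the 2 libraries scaled to the same sum.

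Most of the differences came back in the hairpin pair, which shares no library with the control pair. Of the symbols 2-fold higher in Z138, 1076 were 2-fold higher there too (80.0% of them, and 9.37% of all symbols), and of those 2-fold lower, 1798 (82.2% of them, and 15.7% of all). At 4-fold, 243 higher (2.12% of all) and 634 lower symbols (5.52%) were past that size in both pairs. Across the 11484 symbols the 2 log2 ratios had a Pearson r of 0.90 and a Spearman rho of 0.93, as a description across genes. The median absolute difference between the 2 ratios was 0.20. A limma model with line and hairpin as terms over the 4 libraries called 3293 symbols higher in Z138 (28.7%) and 4452 lower (38.8%) at an adjusted p of 0.05. It had 1 residual degree of freedom, and its p-values measure only how alike the 2 pairs were, so passing it says little about any 1 gene.

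**Figure D1:**
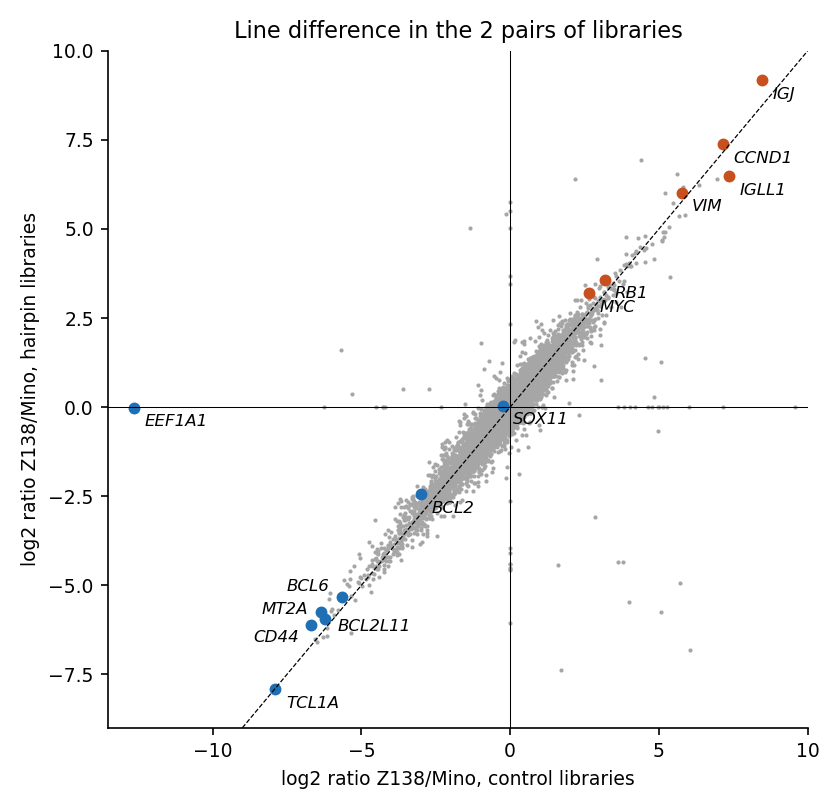
Log2 ratio of Z138 to Mino for each autosomal or unplaced symbol tested, in the control libraries (x axis) and the hairpin libraries (y axis), on the log2(FPKM + 1) scale; the dashed line marks equal ratios. IGJ, IGLL1 and CCND1 lie at the upper right and TCL1A, CD44 and BCL2L11 at the lower left along that line, while EEF1A1 lies on an axis because it is listed at 0 in 1 library.

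Genes were ranked by the ratio in the control pair among those with at least 10 FPKM in the higher control library, values above 0 in all 4 libraries and a 2-fold ratio of the same sign in both pairs. Symbols that differed in 1 pair alone, such as EEF1A1 and several small nucleolar RNAs, do not enter this order although some had larger ratios. IGJ, IGLL1 and CCND1 headed it in Z138. IGJ, the joining chain of secreted IgM and IgA, was at 2.29 and 1.33 FPKM in Mino, against 1159 and 1340 in Z138, a log2 ratio of 8.46 in the control pair. IGLL1, part of the surrogate light chain of the pre-B cell receptor, was at 0.370 and 0.705 FPKM in Mino, against 225 and 151 in Z138 (7.36). CCND1 followed with 7.15. In each of these 3 genes the lowest Z138 value was over 100 FPKM and the highest Mino value under 4. The list of pre-B and receptor assembly genes that holds IGLL1 did not share its direction as a whole. Of its 8 tested genes, 4 were at least 2-fold lower in Z138, among them VPREB3 (-1.13). Another 3, IGLL1 and IGLL5 (1.43) among them, were at least 2-fold higher.

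The rest of the 15 largest positive ratios in this order were a mixed set. VIM, the intermediate filament vimentin, was at 5.72 and 5.55 FPKM in Mino, against 364 and 425 in Z138 (log2 ratio 5.76). SFRP5, a secreted WNT antagonist, was at 1.03 and 1.07 FPKM in Mino, against 249.8 and 174 in Z138 (6.95). APP, the amyloid precursor protein gene, was at 0.0474 and 0.0908 FPKM in Mino, against 84.6 and 80.5 in Z138 (6.35). The others, in order, were the cation channel gene TRPM4, MID1IP1, the protease inhibitor CST3, the inhibitory receptor LILRB4, the receptor gene UTS2R, LAMP5, HLA-DRB1, the growth factor HBEGF and GAS7, with log2 ratios from 5.87 for TRPM4 down to 4.76 for GAS7.

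At the other end stood TCL1A, a coactivator of the kinase AKT that is expressed in naive and germinal centre B cells. It was at 673 and 502 FPKM in Mino, against 1.84 and 1.10 in Z138, a log2 ratio of -7.89. CD44, the hyaluronan receptor, was at 106 and 70.0 FPKM in Mino, against 0.0437 and 0.0258 in Z138 (-6.68). MT2A, a metallothionein that binds zinc and copper, was at 4688 and 4623 FPKM in Mino, against 55.8 and 84.9 in Z138 (-6.37). In all 3 the Mino values were far above the Z138 values in both pairs.

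Several other genes in this group act at the surface or on the cytoskeleton. Besides the red cell glycoprotein gene GYPC (-6.56) they were ZYX (-6.49), which encodes the focal adhesion protein zyxin, the tetraspanins CD82 (-6.15) and TSPAN33 (-5.93), and the galectin gene LGALS3 (-5.98). The remaining members of the 15 most negative ratios in the same order were CPXM1, BCL2L11, NLRP11, SCRN1, the heat shock gene HSPA6, the glutamate receptor subunit GRIN2D and the biliverdin reductase BLVRA. In Mino these genes lay between 59.1 and 209 FPKM in the control library, from BLVRA to NLRP11, and in Z138 none of them exceeded 2 FPKM.

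Some genes were listed at 0 in both libraries of one line, for which no fold is given. There were 94 such symbols at 0 in Z138 and 26 at 0 in Mino among those tested. The cell cycle inhibitor gene CDKN2A, which encodes p16 and ARF, was at 30.3 and 31.4 FPKM in Mino and listed at 0 in both Z138 libraries. Its neighbour CDKN2B, which did not pass the filter, was at 1.44 and 1.36 FPKM in Mino and listed at 0 in Z138, whereas MTAP, on the other side of CDKN2A, was at 7.61 and 7.88 in Mino, against 6.67 and 7.63 in Z138. TOX, a nuclear regulator of lymphocyte development, was at 16.0 and 13.9 FPKM in Mino and SMCO4 at 24.3 and 24, both at 0 in Z138. Only FAM24B and the metallothionein MT1E met the naming rule in the other direction, with 10.8 and 11.8 FPKM and 10.7 and 8.23 FPKM in Z138 and 0 in Mino.

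**Figure D2:**
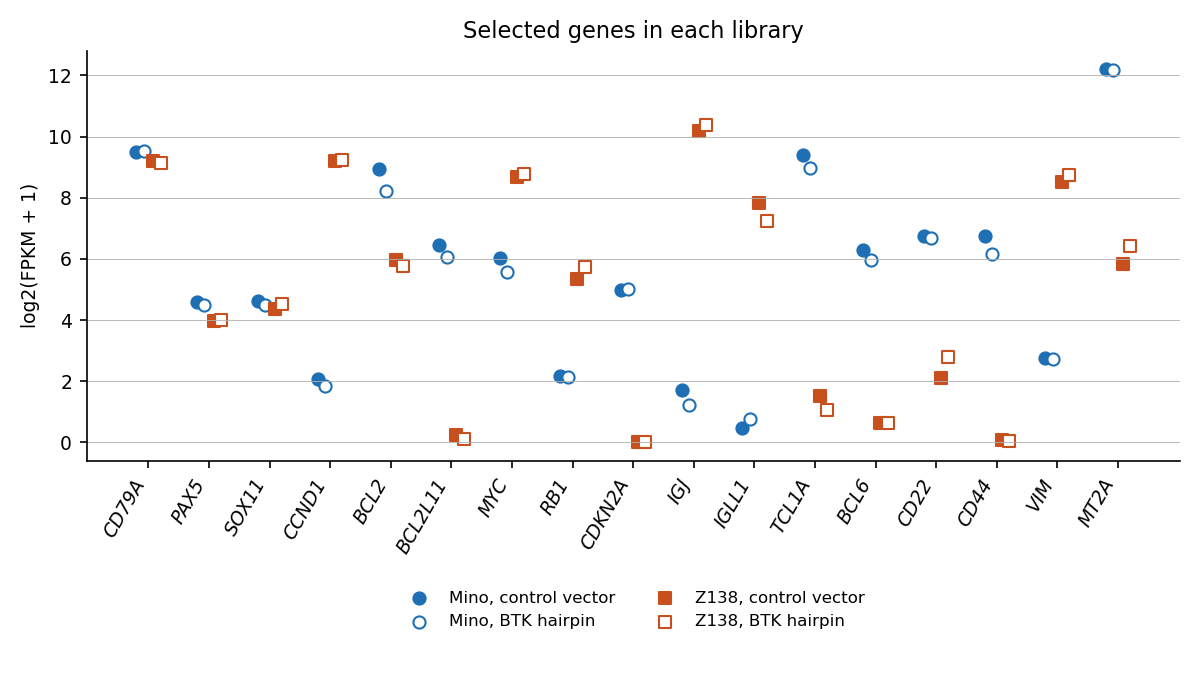
Level of 17 genes as log2(FPKM + 1) in each of the 4 libraries (circles Mino, squares Z138; filled control vector, open BTK hairpin; each point 1 library, no error bars). CD79A and SOX11 lie close together in all libraries, while CCND1, IGJ, IGLL1 and VIM are high only in the squares. TCL1A, BCL2L11 and CD44 are high only in the circles, and MT2A is far higher in the circles than in the squares.

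The endoplasmic reticulum programme was higher in Z138. When proteins misfold in the endoplasmic reticulum, the sensors IRE1, ATF6 and PERK switch on chaperones, a set known as the unfolded protein response, which plasma cells use to secrete antibody. All 22 listed genes passed the filter, and 12 of them (54.5%) were at least 2-fold higher in Z138 with 0 at least 2-fold lower, beside 11.7% and 19.1% of all symbols. The median log2 ratio was 1.11 in the control pair and 0.87 in the hairpin pair, and 20 of 22 ratios were above 0 in the control pair.

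MANF and SDF2L1 had the largest ratios of the list. MANF, a secreted folding factor, was at 18.4 and 27.2 FPKM in Mino, against 226 and 217 in Z138 (log2 ratio 3.55). SDF2L1, a cofactor of the chaperone BiP, was at 25.5 and 45.8 FPKM in Mino, against 212 and 191 in Z138 (3.0). HSPA5, which encodes BiP itself, was at 91.5 and 131 FPKM in Mino, against 257 and 285 in Z138 (1.48). The Z138 values lay above both Mino values in each of these genes.

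Among the sensors, ERN1, which encodes IRE1, was at 10.7 and 10.3 FPKM in Mino, against 46.4 and 49.6 in Z138 (2.01). EIF2AK3, which encodes PERK, was at 12 and 11.3 FPKM in Mino, against 19.0 and 20.5 in Z138 (0.62), and ATF6 was at 5.41 and 5.26 in Mino, against 7.57 and 8.62 in Z138 (0.42). XBP1, the transcription factor that IRE1 activates, was at 98.4 and 160.4 FPKM in Mino, against 160.1 and 159 in Z138, so its difference was not repeated in the hairpin pair (-0.02). DDIT3, which encodes the death-linked factor CHOP, overlapped between the lines, at 111 and 150.2 FPKM in Mino, against 115 and 134 in Z138.

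The promoters were read for the endoplasmic reticulum stress element, which ATF6 and XBP1 bind together with NF-Y. The letters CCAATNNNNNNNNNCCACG were searched on both strands from 250 bases before to 50 after each start in the RefSeq promoters of GRCh38.p14. Of the 22 genes, 21 had a promoter entry and 5 held the element (23.8%), namely HSPA5, HSP90B1, XBP1, CALR and CRELD2, against 0.165% of the 9098 promoters of tested symbols. The median log2 ratio was 1.26 for the 5 with a match and 1.11 for the 16 without, so genes without these letters were about as high. The 2 promoters below had the largest ratios among those with a match and show the element in capitals, at chr22:49918384-49918683, plus strand for CRELD2 (21.6 and 27.1 FPKM in Mino, 73.6 and 69.4 in Z138) and at chr9:125241294-125241593, minus strand for HSPA5.
CRELD2: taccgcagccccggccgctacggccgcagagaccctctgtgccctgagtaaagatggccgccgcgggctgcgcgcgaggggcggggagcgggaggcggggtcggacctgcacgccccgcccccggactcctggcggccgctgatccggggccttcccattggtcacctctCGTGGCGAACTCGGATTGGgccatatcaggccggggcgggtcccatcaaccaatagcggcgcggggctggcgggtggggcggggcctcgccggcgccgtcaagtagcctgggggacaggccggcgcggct
HSPA5: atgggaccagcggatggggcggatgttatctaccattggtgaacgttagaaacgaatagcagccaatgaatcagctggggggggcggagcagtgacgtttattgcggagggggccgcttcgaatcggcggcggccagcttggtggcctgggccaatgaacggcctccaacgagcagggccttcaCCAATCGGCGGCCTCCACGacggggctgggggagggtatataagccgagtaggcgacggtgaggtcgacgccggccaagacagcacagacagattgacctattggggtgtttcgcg

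The machinery that moves proteins into the endoplasmic reticulum and glycosylates them was counted in a list written after the data had been seen. Of its 38 tested members, 19 were at least 2-fold higher in Z138 and 0 at least 2-fold lower, with medians of 1.00 and 0.82 in the 2 pairs. FKBP11, a prolyl isomerase of secretory cells, was at 24.4 and 27.3 FPKM in Mino, against 590 and 474 in Z138 (4.54). The translocon-associated subunit SSR4 was at 183 and 227 FPKM in Mino, against 967 and 745 in Z138 (2.40), and SSR2 was at 327 and 369 in Mino, against 1366 and 1107 in Z138 (2.06). SEC61A1, the pore of the translocon, was at 96.8 and 132 FPKM in Mino, against 267 and 244 in Z138 (1.45).

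Genes of the plasma cell did not all move the same way. Of 19 tested, 7 (36.8%) were at least 2-fold higher in Z138, beside 11.7% of all symbols. Another 4 (21.1%) were at least 2-fold lower, close to the 19.1% of all symbols. Next to IGJ and FKBP11, the syndecan gene SDC1, which encodes the plasma cell marker CD138, was at 8.81 and 8.35 FPKM in Mino, against 54.4 and 43.3 in Z138 (2.50), and the antibody assembly factor MZB1 was at 157 and 214 in Mino, against 715 and 570 in Z138 (2.18). The transcription factors that drive the plasma cell fate did not differ by 2-fold: IRF4 was at 121 and 114 FPKM in Mino, against 135 and 123 in Z138, and PRDM1 at 6.64 and 3.95 in Mino, against 7.16 and 7.66 in Z138. CD27, a receptor of memory B cells and plasma cells, was lower in Z138, with 15.7 and 12.3 FPKM in Mino and 1.11 and 1.32 in Z138 (-2.98), and the kinase gene PIM2 was at 533 and 498 in Mino, against 189 and 169 in Z138 (-1.49).

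MYC and the genes of ribosome production formed the second group that was higher in Z138. MYC, the transcription factor that drives ribosome biogenesis and growth, was at 63.9 and 46.6 FPKM in Mino, against 407 and 439 in Z138, a log2 ratio of 2.65 in the control pair and 3.21 in the hairpin pair. Of the 36 genes of the MYC and ribosome biogenesis list, 35 passed the filter. In Z138 18 of them (51.4%) were at least 2-fold higher, beside 11.7% of all symbols, with medians of 1.00 and 1.14. Another 3 (8.57%) were at least 2-fold lower, beside 19.1%. The list holds MYC itself.

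Nucleolar factors made up most of the higher members. NOP16 was at 9.05 and 9.13 FPKM in Mino, against 55.9 and 52.8 in Z138 (2.50). PPAN, needed for the large ribosomal subunit, was at 6.98 and 8.17 FPKM in Mino, against 41.4 and 41.6 in Z138 (2.41). NCL, which encodes nucleolin, was at 127 and 103 FPKM in Mino, against 336 and 398 in Z138 (1.40). In contrast the methyltransferase gene FBL, another nucleolar factor, was at 448 and 396 FPKM in Mino, against 350.2 and 300.4 in Z138 (-0.35).

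The 3 members that were 2-fold lower were not nucleolar. MXD1 and MXI1 encode partners of MAX that compete with MYC, and TFRC encodes the transferrin receptor. MXD1 was at 7.41 and 5.38 FPKM in Mino, against 1.97 and 1.99 in Z138 (-1.50), and MXI1 at 33.5 and 26.2 in Mino, against 12.8 and 15.2 in Z138 (-1.32). TFRC was at 54.9 and 51.2 FPKM in Mino, against 19.2 and 18.3 in Z138 (-1.47). MAX, the shared partner, stayed within 2-fold, at 33.0 and 40.9 FPKM in Mino, against 45.9 and 45.2 in Z138.

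MYC and MAX bind the E-box CACGTG. Of the 35 genes, 30 had a promoter entry and 12 held the E-box (40.0%), against 10.8% of the promoters of tested symbols. The match was found in genes that were higher and in genes that were not: the median log2 ratio was 1.11 for the 12 with a match and 0.83 for the 18 without. Among the 12 were FBL and EIF4E, whose ratios were below 0 (-0.35 and -0.73). The 2 with the largest ratios, shown with the E-box in capitals, encode nucleolar factors. RRP9, a part of the U3 snoRNP, was at 6.36 and 6.47 FPKM in Mino, against 37.4 and 31.3 in Z138, with its promoter at chr3:51941855-51942154, minus strand. MRTO4, an assembly factor of the large subunit, was at 8.11 and 8.35 FPKM in Mino, against 40.9 and 41.1 in Z138, with its promoter at chr1:19251555-19251854, plus strand.
RRP9: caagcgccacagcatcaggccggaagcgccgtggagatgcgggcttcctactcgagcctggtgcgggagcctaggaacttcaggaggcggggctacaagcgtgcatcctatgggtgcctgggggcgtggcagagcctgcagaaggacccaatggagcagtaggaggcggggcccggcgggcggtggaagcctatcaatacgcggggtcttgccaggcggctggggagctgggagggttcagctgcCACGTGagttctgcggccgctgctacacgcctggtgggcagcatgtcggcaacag
MRTO4: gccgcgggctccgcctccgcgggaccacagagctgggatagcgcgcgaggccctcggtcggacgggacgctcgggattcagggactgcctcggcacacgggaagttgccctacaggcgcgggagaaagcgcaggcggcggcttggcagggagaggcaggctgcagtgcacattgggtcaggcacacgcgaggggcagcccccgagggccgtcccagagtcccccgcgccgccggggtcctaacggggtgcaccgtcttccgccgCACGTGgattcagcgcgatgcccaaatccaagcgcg

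Other parts of protein synthesis differed less. Cytosolic ribosomal protein genes, 83 tested of 87, had a median log2 ratio of 0.40. In Z138 11 (13.3%) were at least 2-fold higher, close to the 11.7% of all symbols, and 2 (2.41%) at least 2-fold lower. RPL17 was one of the 2, at 8305 and 8941 FPKM in Mino, against 3328 and 3320.3 in Z138 (-1.32), and it lies in the stretch of chromosome 18 described further on. Ribosomal protein genes have many processed copies in the genome, so fragments may be split between them in ways the table does not show. Mitochondrial ribosomal proteins had a median of 0.37 with 18 of 76 at least 2-fold higher and 3 lower, and aminoacyl-tRNA synthetases a median of 0.52 with 7 of 19 higher and 0 lower; both lists were written after the data had been seen.

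ATF4 targets, which supply amino acids, were higher in the control pair more than in the hairpin pair. Their median was 0.54 in the first and 0.10 in the second. In the control pair 10 of 28 genes (35.7%) were at least 2-fold higher, beside 11.7% of all symbols. Of these, 5 were so in both pairs. PYCR1, an enzyme of proline synthesis, was at 14.9 and 20.8 FPKM in Mino, against 244 and 202 in Z138 (3.94). SHMT2, the mitochondrial enzyme that passes on the carbon of serine, was at 363 and 422 FPKM in Mino, against 1391 and 1222 in Z138 (1.94). ATF4 itself was at 698 and 806 FPKM in Mino, against 932 and 896 in Z138.

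**Figure D3:**
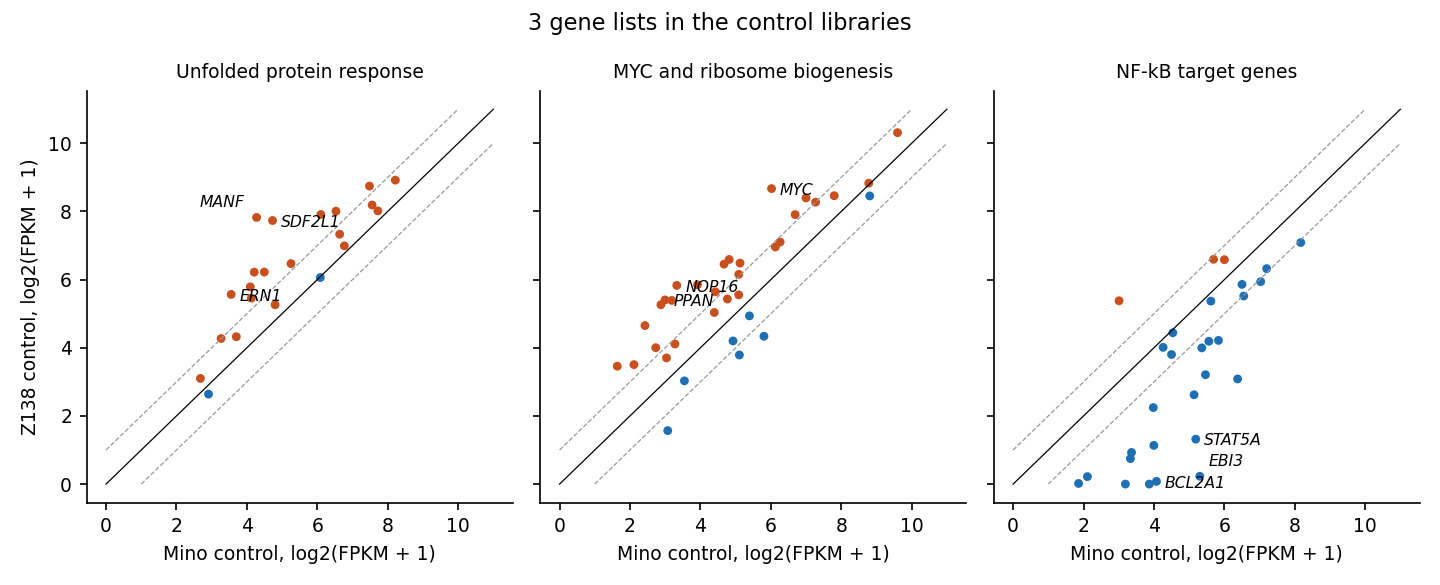
Each member of 3 gene lists by its level in the Mino control (x axis) and the Z138 control library (y axis), both as log2(FPKM + 1); the solid line marks equal levels and the dashed lines 2-fold on this scale. Most unfolded protein response genes and MYC and ribosome biogenesis genes lie above the line, and 20 of 29 NF-kB target genes lie below the lower dashed line.

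NF-kB target genes had the largest share of members lower in Z138 among the lists with more than 10 tested genes. NF-kB factors enter the nucleus after receptor signals and switch on survival genes, chemokines and their own inhibitors. Of 39 genes, 29 passed the filter and 20 of these (69.0%) were at least 2-fold lower in Z138, with 1 at least 2-fold higher, beside the 19.1% and 11.7% of all symbols. The median was -1.62 in the control pair and -1.38 in the hairpin pair.

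EBI3, a cytokine subunit, was at 38.5 and 22.9 FPKM in Mino, against 0.172 and 0.378 in Z138 (-5.07). BCL2A1, a survival member of the BCL2 family, was at 15.8 and 11.1 FPKM in Mino, against 0.0570 and 0.0691 in Z138 (-3.99). STAT5A, a transcription factor downstream of cytokine receptors, was at 35.5 and 27.5 FPKM in Mino, against 1.49 and 2.22 in Z138 (-3.87). The chemokine CCL22 was at 13.6 and 5.96 FPKM in Mino and listed at 0 in Z138. Against this direction, the interferon regulatory factor gene IRF1 was at 7.05 and 6.73 FPKM in Mino, against 40.6 and 41.9 in Z138 (2.37), and the stress gene GADD45B was at 50.8 and 37.9 in Mino, against 95.8 and 70.5 in Z138 (0.90). TNFAIP3, which encodes the inhibitor A20, overlapped between the lines, with 22.2 and 15.1 FPKM in Mino and 20.7 and 18.9 in Z138.

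Of 23 canonical NF-kB subunits, inhibitors and regulators tested, 8 (34.8%) were at least 2-fold lower in Z138, 0 at least 2-fold higher and 15 within 2-fold. The shares over all symbols were 19.1% lower and 11.7% higher. RELA was at 49.5 and 53 FPKM in Mino, against 53.3 and 48.3 in Z138, and NFKB1 at 18.2 and 15.5 in Mino, against 15.1 and 17.3 in Z138, with overlapping values in both. REL, the subunit most used in B cells, was an exception with 17.2 and 11.7 FPKM in Mino and 2.44 and 2.79 in Z138 (-2.40). Among the nuclear IkB proteins, which modulate NF-kB at its targets, NFKBIZ was at 102 and 85.7 FPKM in Mino, against 1.13 and 2.0 in Z138 (-5.60), and BCL3 at 79.0 and 80.7 in Mino, against 12.8 and 10.5 in Z138 (-2.54). In the alternative pathway 6 of 16 tested genes (37.5%) were at least 2-fold lower in Z138 and 1 at least 2-fold higher. The adaptor TRAF2 was at 33.1 and 34.5 FPKM in Mino, against 5.22 and 4.67 in Z138 (-2.45). The receptor CD40 was at 43.1 and 42.1 FPKM in Mino, against 8.25 and 9.99 in Z138 (-2.25), while NFKB2 was somewhat higher in Z138, at 63.1 and 60.8 in Mino, against 95 and 90.5 in Z138 (0.58).

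The B cell receptor pathway was lower in Z138 below the receptor. Of 34 tested genes of 36, 16 (47.1%) were at least 2-fold lower, beside 19.1% of all symbols. Only 1 (2.94%) was at least 2-fold higher, beside 11.7%, and the medians were -0.78 and -0.54. The receptor chains were close, CD79B being at 411 and 397 FPKM in Mino, against 271 and 285 in Z138 (-0.60). BTK, the hairpin's target, was at 37.0 and 9.84 FPKM in Mino, against 51.0 and 12.4 in Z138 (0.45 in the control pair).

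Large gaps lay in the branch from phospholipase C to NF-kB. PLCG2, the phospholipase that BTK activates, was at 43.4 and 37.7 FPKM in Mino, against 11.6 and 16.0 in Z138 (-1.82). PRKCB, the protein kinase C of B cells, was at 27.9 and 23.2 FPKM in Mino, against 1.82 and 2.63 in Z138 (-3.35). BCL10 and MALT1, which act further down the branch, differed by less than 2-fold, BCL10 with 10.1 and 10.3 FPKM in Mino and 6.51 and 8.78 in Z138, and MALT1 with 21.4 and 21.7 in Mino and 13.9 and 16.6 in Z138. SYK and LYN, the first kinases after the receptor, had log2 ratios of -0.69 and -0.77.

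Inhibitory receptors and phosphatases of the B cell receptor were lower too, with 9 of 20 at least 2-fold lower and 3 at least 2-fold higher. CD22, which recruits a phosphatase to the receptor, was at 107 and 102 FPKM in Mino, against 3.34 and 5.96 in Z138 (-4.64). The 3 higher genes included FCGR2B, the inhibitory Fc receptor, at 0.140 and 0.0720 FPKM in Mino, against 9.13 and 7.83 in Z138 (3.15), and FCRLA, an intracellular Fc receptor homologue, at 36.8 and 54.3 in Mino, against 307 and 253 in Z138 (3.03). Among antigens that antibodies target, CD37 was at 769 and 559.9 FPKM in Mino, against 45.4 and 37.6 in Z138 (-4.05), whereas MS4A1, which encodes CD20, was at 47.8 and 43.5 in Mino, against 84.7 and 113 in Z138 (0.81).

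Transcription factors of the B lineage differed gene by gene. Of 35 tested, 13 (37.1%) were at least 2-fold lower in Z138 and 2 (5.71%) at least 2-fold higher, beside 19.1% and 11.7% of all symbols. PAX5, which holds B cell identity, differed by less than 2-fold, with 22.9 and 21.5 FPKM in Mino and 14.5 and 14.9 in Z138 (-0.62). BCL6, the repressor that runs the germinal centre, was at 78.1 and 61.2 FPKM in Mino, against 0.567 and 0.541 in Z138 (-5.66). The germinal centre list that holds it did not follow as a whole, with a median of -0.10. There 3 of 13 tested genes (23.1%) were at least 2-fold lower in Z138, 2 (15.4%) at least 2-fold higher and 8 within 2-fold. IRF8 was at 115 and 126 FPKM in Mino, against 6.85 and 8.75 in Z138 (-3.88), and POU2F2, which encodes OCT2, was at 154 and 131 in Mino, against 9.83 and 8.96 in Z138 (-3.84). KLF2, a factor of quiescence and homing, was higher in Z138, at 8.70 and 7.53 FPKM in Mino, against 44.8 and 44.3 in Z138 (2.24).

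Homing and adhesion genes differed in both directions. Of 19 chemokine and homing receptor genes tested of 30, 8 (42.1%) were at least 2-fold lower in Z138 and 5 (26.3%) at least 2-fold higher. Of 24 integrin and adhesion genes tested of 38, 13 (54.2%) were at least 2-fold lower in Z138 and 5 (20.8%) at least 2-fold higher. The shares over all symbols were 19.1% lower and 11.7% higher. CXCR5, the receptor that draws B cells into follicles, was at 77.6 and 80.0 FPKM in Mino, against 2.69 and 3.01 in Z138 (-4.41). CXCR4, the receptor for the bone marrow chemokine, was at 145 and 144 FPKM in Mino, against 299.7 and 299.5 in Z138 (1.05), and S1PR1, which guides exit from lymph nodes, was at 1.99 and 2.05 in Mino, against 17.4 and 20.7 in Z138 (2.62). ITGA4, the alpha chain of the integrin VLA-4, was at 0.966 and 1.18 FPKM in Mino, against 8.99 and 10.7 in Z138 (2.34).

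Memory and marginal zone genes and genes of the Notch pathway were more often lower than higher in Z138. Of 13 memory and marginal zone genes tested of 22, 8 (61.5%) were at least 2-fold lower and 3 (23.1%) at least 2-fold higher, beside 19.1% and 11.7% of all symbols. AIM2 (-3.58) and CD27 (-2.98) were among the lower ones. The 3 higher ones were S1PR1 (2.62), TNFRSF1B (1.00) and FCER2 (CD23), which is not specific to these cells. FCER2 was at 4.27 and 7.53 FPKM in Mino, against 42.3 and 27.8 in Z138 (3.04). Of 20 Notch genes tested of 28, 9 were at least 2-fold lower, 10 were within 2-fold and 1 was at least 2-fold higher. NOTCH1 was at 10.5 and 8.04 FPKM in Mino, against 2.12 and 1.67 in Z138 (-1.89), and its target NRARP at 27.2 and 24.8 in Mino, against 2.76 and 2.28 in Z138 (-2.91). NOTCH2 did not differ in the same direction in the 2 pairs, with 20.5 and 14.1 FPKM in Mino and 19.0 and 25.5 in Z138.

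Of the 6 survival members of the BCL2 family tested, 2 (33.3%) were at least 2-fold lower in Z138, beside 19.1% of all symbols. These were BCL2 and BCL2A1, and the other 4 were within 2-fold. BCL2, which holds back the mitochondrial step of apoptosis, was at 491 and 297 FPKM in Mino, against 61.2 and 54.0 in Z138 (log2 ratio -2.98; over the 4 libraries -2.71, SE 0.15, adjusted p = 2.25e-06 in limma). FBXO10, the ubiquitin ligase subunit that the series links to BCL2, was lower as well, with 17.4 and 14.8 FPKM in Mino and 3.36 and 3.15 in Z138 (-2.08; -2.01, SE 0.14, adjusted p = 6.66e-06 in limma). Both p-values measure only how alike the 2 pairs were and leave out the variation among cultures of the same line. MCL1, another survival member, stayed within 2-fold at 81.1 and 70.0 FPKM in Mino and 63.2 and 66.6 in Z138.

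Among the members that promote death, 6 of 11 tested (54.5%) were at least 2-fold lower in Z138, beside 19.1% of all symbols, and 0 were at least 2-fold higher. BCL2L11, which encodes BIM, the activator that BCL2 binds, was at 87.1 and 65.3 FPKM in Mino, against 0.172 and 0.0803 in Z138 (-6.23; -6.09, SE 0.14, adjusted p = 9.57e-08 in limma). The limit given for the p-value of BCL2 holds here too. BMF was at 136 and 123 FPKM in Mino, against 27.4 and 33.5 in Z138 (-2.27), and BBC3, which encodes PUMA, was at 52.6 and 39.3 in Mino, against 10.1 and 10.2 in Z138 (-2.27). BAX, one of the pore formers, differed by less than 2-fold with 129 and 119.8 FPKM in Mino and 114 and 101 in Z138. The neighbours of BCL2L11 were not low in Z138: BUB1 was at 38.7 and 35.2 FPKM in Mino, against 82.2 and 95.6 in Z138, and ANAPC1 at 6.28 and 6.50, against 10.2 and 12.3.

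Genes of the G1 checkpoint held some of the largest differences. RB1, which encodes the retinoblastoma protein that CDKs phosphorylate, was at 3.45 and 3.42 FPKM in Mino, against 39.2 and 51.7 in Z138 (3.17). CDKN2A was thus seen in the line with little RB1 and CCND1, and was at 0 in the line with both. CDK4 was at 102 and 109 FPKM in Mino, against 239 and 203 in Z138 (1.22), while CCNE1, the G1 cyclin that acts after RB1, was at 38.7 and 36.4 in Mino, against 3.89 and 3.37 in Z138 (-3.02). CDKN1A, which encodes the CDK inhibitor p21, was at 75.2 and 69.1 FPKM in Mino, against 212 and 189 in Z138 (1.48), and MDM2 at 7.49 and 6.23 in Mino, against 17.7 and 20.1 in Z138 (1.14). The list of p53 targets that holds CDKN1A and MDM2 did not share this direction, with a median of -0.21. There 9 of 32 tested genes (28.1%) were at least 2-fold lower in Z138 and 3 (9.38%) at least 2-fold higher. The shares over all symbols were 19.1% and 11.7%. Genes of DNA replication had a median of -0.23, with 0 of 35 at least 2-fold higher. In this list 6 (17.1%) were at least 2-fold lower, close to the 19.1% of all symbols.

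Interferon-stimulated genes were lower in Z138. These antiviral genes are switched on when a cell senses interferon. Of 46, 31 passed the filter, and 15 of these (48.4%) were at least 2-fold lower with 1 (3.23%) at least 2-fold higher. The shares over all symbols were 19.1% and 11.7%. The list medians were -0.94 and -0.49 in the 2 pairs, and -0.35 in the control pair with no filter on low values. OAS2, an RNA sensor, was at 28.1 and 24 FPKM in Mino, against 1.17 and 1.35 in Z138 (-3.75). IFITM2, which blocks viral entry, was at 35.5 and 29.2 FPKM in Mino, at 0.0592 in the Z138 control and at 0 in the Z138 hairpin library. IRF9, a transcription factor of the response, was at 24.1 and 28.2 FPKM in Mino, against 8.92 and 9.18 in Z138 (-1.34).

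The core of the interferon response element, GAAANNGAAA, was found in 16 of the 23 promoters that had an entry (69.6%), against 2.76% of the promoters of tested symbols. Matches of this core can overlap each other, and across all 27305 promoters 1 overlapped a stress element and 0 overlapped an E-box. Among these 23, genes with the core were not the lower ones, with a median log2 ratio of -0.44 for the 16 and -0.66 for the 7 without. Members without a promoter entry were not searched, among them IFITM2 (-5.10) and OAS2 (-3.75), and the median of all 31 was -0.94. BST2, which holds 2 matches, was higher in Z138, at 34 and 38.1 FPKM in Mino, against 68.7 and 58.7 in Z138 (0.99). The 2 promoters with a match and the most negative ratios follow, with the core in capitals. OAS3, at chr12:112938224-112938523, plus strand, was at 5.21 and 4.11 FPKM in Mino, against 0.0155 and 0.0156 in Z138, and MX1, at chr21:41420308-41420607, plus strand, at 40.3 and 42.9 in Mino, against 6.40 and 5.29 in Z138.
OAS3: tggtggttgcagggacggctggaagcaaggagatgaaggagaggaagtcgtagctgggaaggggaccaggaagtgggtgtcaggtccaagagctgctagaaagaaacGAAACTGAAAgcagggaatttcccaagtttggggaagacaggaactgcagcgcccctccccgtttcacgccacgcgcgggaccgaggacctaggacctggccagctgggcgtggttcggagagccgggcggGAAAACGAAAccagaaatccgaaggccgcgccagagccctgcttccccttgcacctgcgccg
MX1: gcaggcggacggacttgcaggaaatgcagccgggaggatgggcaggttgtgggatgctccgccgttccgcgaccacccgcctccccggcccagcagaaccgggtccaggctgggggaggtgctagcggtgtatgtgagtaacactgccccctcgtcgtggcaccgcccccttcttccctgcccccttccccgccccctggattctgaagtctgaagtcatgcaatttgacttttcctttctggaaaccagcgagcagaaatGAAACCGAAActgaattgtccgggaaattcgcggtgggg

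Metal and stress genes were high in Mino. The metallothionein genes, a list written after the data had been seen, summed to 5856 and 5307 FPKM in Mino and to 98.2 and 123 in Z138. Of the 6 tested, 5 were at least 2-fold lower in Z138, and MT1E was the exception given above. These genes are near copies of each other, so the split of fragments between them is uncertain while the sum is less so. Of 14 heat shock genes tested, 7 were at least 2-fold lower and 1 was at least 2-fold higher, with medians of -1.08 in the control pair and -0.48 in the hairpin pair. HSP90AA1, the inducible HSP90, was at 603 and 405 FPKM in Mino, against 139 and 156 in Z138 (-2.11), and HSPD1, the mitochondrial chaperone, was the higher one at 154 and 122 in Mino and 308 and 366 in Z138 (1.00).

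Cholesterol synthesis genes were lower in Z138 in 11 of 23 cases (47.8%) by at least 2-fold, with 1 (4.35%) at least 2-fold higher. The shares over all symbols were 19.1% and 11.7%, and the medians of the list were -0.68 and -0.62. FDFT1, which makes squalene, was at 154 and 121 FPKM in Mino, against 30.0 and 24.5 in Z138 (-2.33), and SREBF2, the regulator of the pathway, was at 120.04 and 112 in Mino, against 56.5 and 44.8 in Z138 (-1.07). The exception was the kinase PMVK, with 18.5 and 17.9 FPKM in Mino and 68.3 and 58.6 in Z138 (1.83).

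Genes of oxidative phosphorylation and of the proteasome mostly lay within 2-fold. Oxidative phosphorylation genes, 46 of 46 tested, had a median of 0.20 with 3 at least 2-fold higher and 4 lower, and proteasome genes a median of 0.23 with 4 of 31 higher and 0 lower. Of 34 glycolysis and hypoxia genes, 12 (35.3%) were at least 2-fold lower in Z138 and 3 (8.82%) higher, beside 19.1% and 11.7% of all symbols. ENO2, an enolase, was at 112 and 93.9 FPKM in Mino, against 6.88 and 4.69 in Z138 (-3.84), and the muscle-type phosphofructokinase PFKM was at 9.01 and 8.25 in Mino, against 36.5 and 40.2 in Z138 (1.90).

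**Figure D4:**
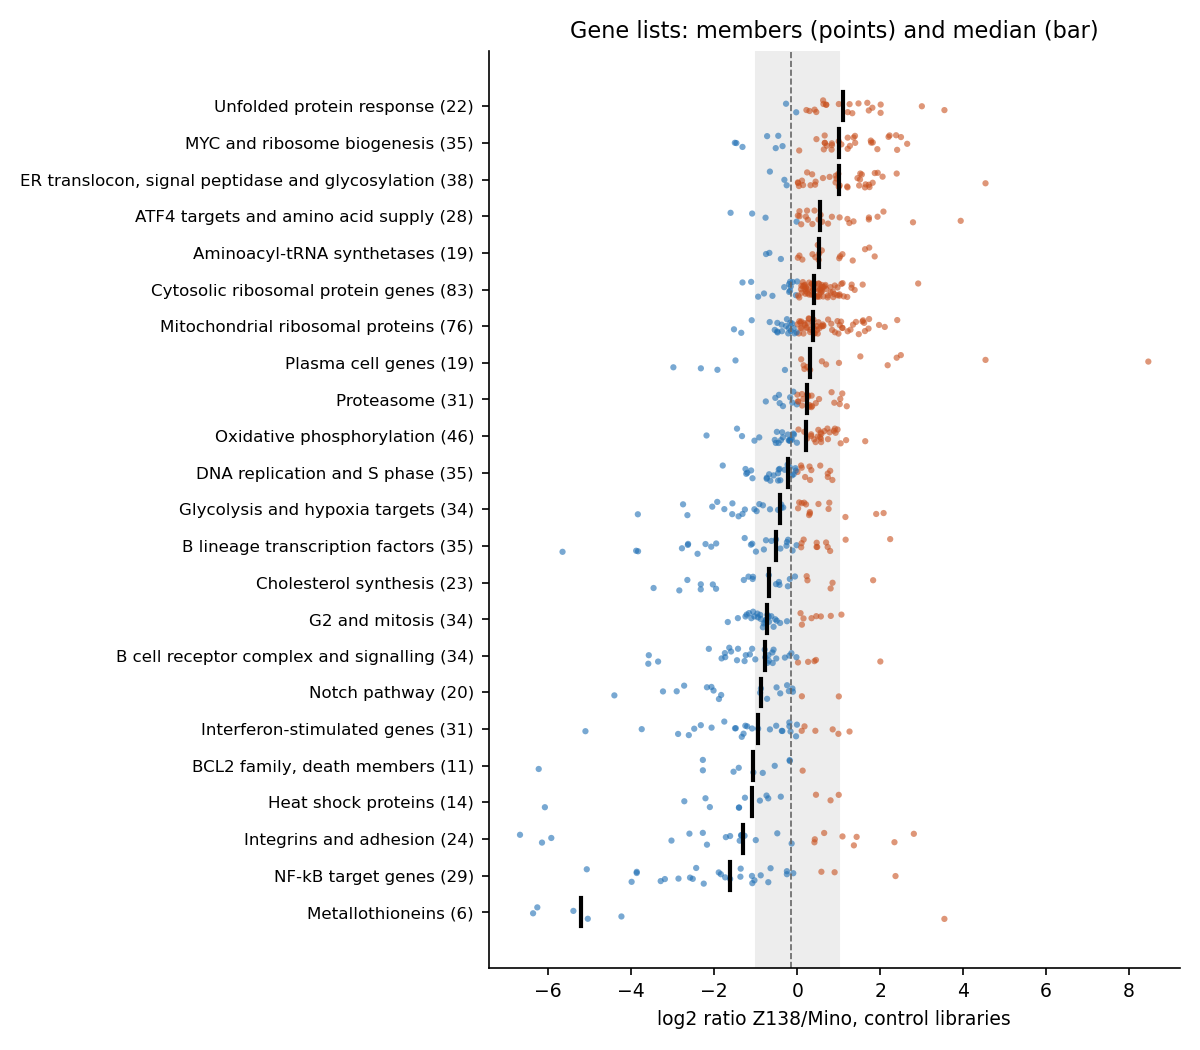
Log2 ratio of Z138 to Mino in the control libraries for each tested member of 23 gene lists (points; number tested in brackets) with the list median (black bar); the grey band spans 2-fold and the dashed line is the median of all symbols, -0.15. Medians run from 1.11 for the unfolded protein response to -5.22 for the 6 metallothioneins.

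Antigen presentation genes could be read only in part. CD74, the invariant chain, was at 3247 and 2750.0 FPKM in Mino, against 2785 and 2786 in Z138. HLA-DRA, its partner, was listed at 0, 0.0354, 0.0433 and 0 FPKM, and HLA-DPA1 and HLA-DPB1 at 0 in all 4 libraries, so the values for this family may be failed estimates. HLA-DRB1, at 0.772 and 0.724 FPKM in Mino and 61.9 and 50.7 in Z138, belongs to the same uncertain set, as does HLA-DQB1 with 142 and 120 in Mino and 40.0 and 35.4 in Z138. The costimulator CD86, outside that region, was at 15 and 13.4 FPKM in Mino, against 1.20 and 1.53 in Z138 (-2.86).

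The position of the genes was examined last, after the data had been seen, in the gene order of RefSeq on GRCh38. Of the 22 autosomes, chromosome 18 had the lowest median log2 ratio, -0.78 followed by chromosome 11 with -0.41. Chromosome 13 had the highest, 0.45 over 176 symbols. The medians in the hairpin pair were -0.66, -0.42 and 0.59. RB1 lies on chromosome 13, and its neighbours ITM2B and MED4 were higher in Z138 as well, ITM2B with log2 ratios of 0.75 and 1.22 in the 2 pairs and MED4 with 1.35 and 1.48, though by less than RB1.

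On chromosome 18 the lower genes lay next to each other. In the stretch from PIK3C3 to VPS4B, whose ends were set from these values, 35 of 49 protein-coding symbols were at least 2-fold lower in Z138 and 1 was at least 2-fold higher, with a median of -1.72. On the rest of the chromosome 20 of 89 were at least 2-fold lower and 8 higher, with a median of -0.48. On the other autosomes 1900 of 10180 were at least 2-fold lower and 1165 higher, with a median of -0.14. BCL2 lies in this stretch, and its neighbours were lower by similar amounts. The phosphatase PHLPP1 was at 47.3 and 43.0 FPKM in Mino, against 7.51 and 6.69 in Z138 (-2.51), and the sphingolipid enzyme KDSR at 60.1 and 64.9 in Mino, against 8.69 and 10.7 in Z138 (-2.66).

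The same stretch held SMAD4, a mediator of TGF-beta signals, with 32.1 and 32.9 FPKM in Mino and 7.38 and 7.62 in Z138 (-1.98), and the B cell transcription factor TCF4 with 53 and 47.1 in Mino and 7.68 and 11.3 in Z138 (-2.64). It also held the death gene PMAIP1, which encodes NOXA, at 594 and 506 FPKM in Mino, against 204 and 243 in Z138 (-1.53), and the ubiquitin ligase NEDD4L at 47.5 and 37.5 in Mino, against 0.724 and 0.646 in Z138 (-4.81). ALPK2 was the 1 higher gene, at 0.0297 and 0.0912 FPKM in Mino, against 14.4 and 16.8 in Z138 (3.9), and SEC11C, a subunit of the signal peptidase, was at 766 and 660.0 in Mino, against 904 and 843 in Z138 (0.24). DNA copy number was not measured, and its part in these values was not tested.

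Windows of 21 neighbouring symbols were ranked by their median, and some of the most extreme are given, which were bound to stand out. The shares over all symbols were 19.1% lower and 11.7% higher. Chromosome 19 held a low window from FXYD7 to TYROBP, with 14 of 21 lower, 1 higher and a median of -1.63. It also held a high one from SPPL2B to DOHH, with 11 higher, 3 lower and a median of 1.25. From PANX1 to CARD16 on chromosome 11, 17 of 21 symbols were at least 2-fold lower in Z138 and 0 higher, with a median of -1.49. That window holds BIRC2 and BIRC3, inhibitors of apoptosis that also restrain the alternative NF-kB pathway, BIRC2 with 18.5 and 18.6 FPKM in Mino and 5.92 and 7.40 in Z138 (-1.49) and BIRC3 with 14.8 and 11.2 in Mino and 3.74 and 5.18 in Z138 (-1.74). From CYB561D2 to TLR9 on chromosome 3, 12 of 21 were at least 2-fold higher and 0 lower, with a median of 1.34, and RRP9 lies between them. From IFT88 to RPL21 on chromosome 13, 13 of 21 were at least 2-fold higher and 0 lower, with a median of 1.24.

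**Figure D5:**
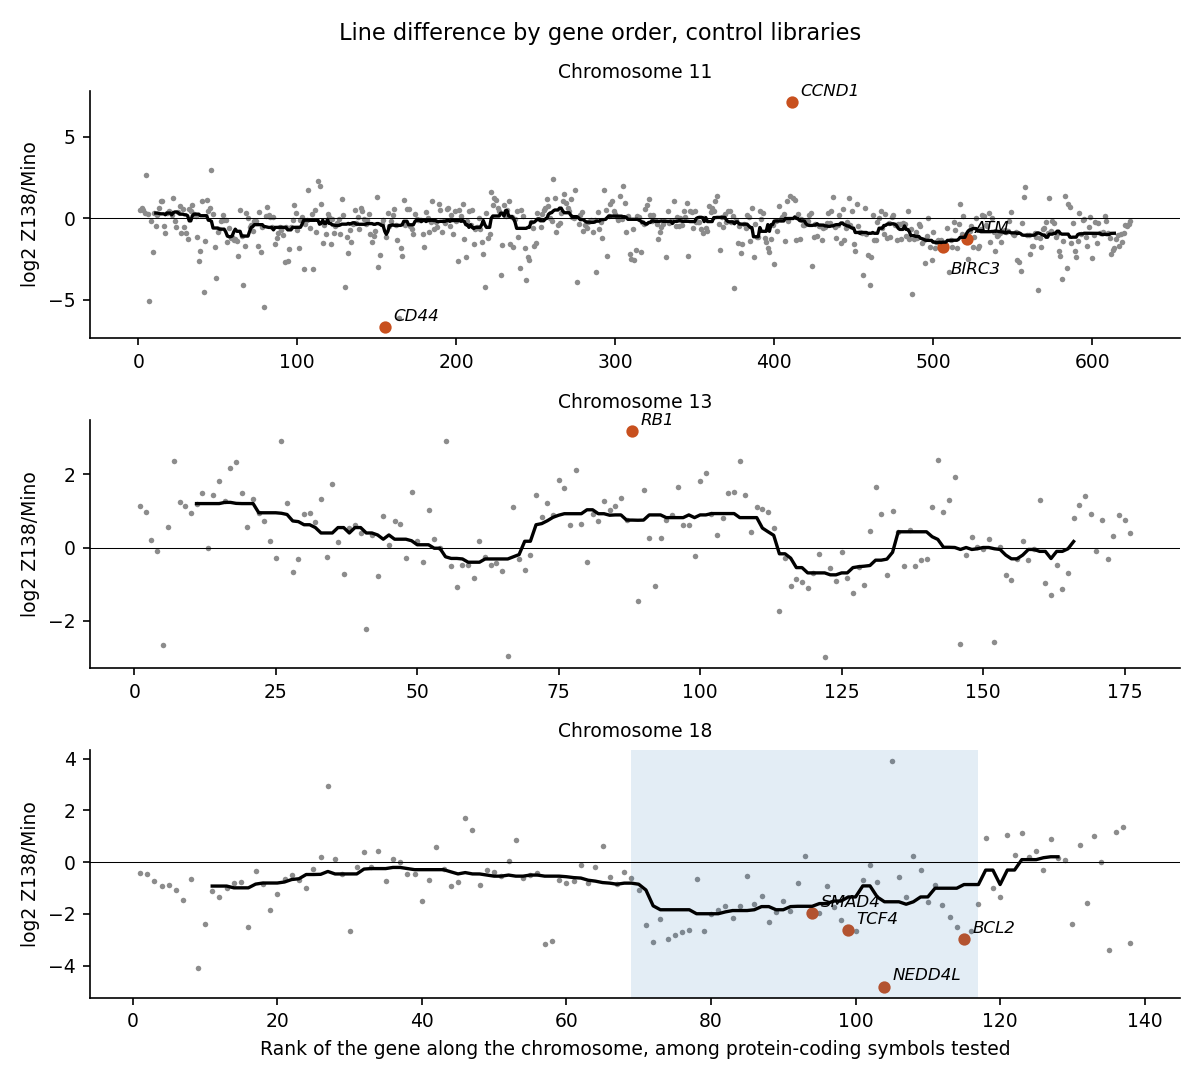
Log2 ratio of Z138 to Mino in the control libraries for protein-coding symbols of chromosomes 11, 13 and 18 by their rank along the chromosome (points), with the running median of 21 symbols (line); the shaded band is PIK3C3 to VPS4B. The running median is lowest in the band, where BCL2, SMAD4, TCF4 and NEDD4L lie, and stays above 0 around RB1, while CCND1 and CD44 stand far from their neighbours.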

How the data were processed

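Total RNA was extracted with a column kit and made into Illumina TruSeq libraries, per the labels' protocols. The authors deposited 1 table of FPKM values with 1 column for each of the 4 libraries. Per the submitters' processing notes, TopHat and the build hg19 were used. For the program and annotation behind the FPKM values, the sources used here give nothing. Depth is unknown, so no counting interval is given. The labels name no batch.

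Ratios were taken on log2(FPKM + 1). Symbols averaging 1 FPKM or more were kept. limma 3.58.1 in R 4.3.3 (line and hairpin as additive terms, mean-variance trend, Benjamini-Hochberg adjustment over 11484 symbols) was tested on simulated data and used only to describe repetition, with 1 residual degree of freedom. With 1 culture per line and vector, p-values leave out the variation among cultures of the same line. The 52 gene lists, the comparison itself and the naming rule were chosen with earlier results of these data known, and 5 further lists (metallothioneins, endoplasmic reticulum translocon and glycosylation, mitochondrial ribosomal proteins, aminoacyl-tRNA synthetases, NLRP family) and the gene-order windows were added after the values were seen. Named genes had at least 10 FPKM in the higher control library and a 2-fold ratio of the same sign in both pairs. The 15 most extreme per direction, up to 8 per direction listed at 0 in one line, up to 4 members per direction of each list at 5 FPKM or more, and defining members were taken; other members and neighbours named for their role or position were chosen after their values were seen. Gene order and promoters came from RefSeq (GRCh38.p14) by symbol, matched for 24076 of 25277 symbols. Alternatives covered the pseudocount, the filter, scaling, zeros, GC content and length, and leaving out each library. Some genes are not reported here.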

Additional observations from a re-analysis of the deposited data

Results flagged for a closer look

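Among the 11484 symbols tested, 11 were past 2-fold in opposite directions in the control pair and the hairpin pair. The difference between the pairs was not tested, since each has 1 library per line. All but H3F3A are small RNA genes.

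The histone gene H3F3A had a log2 ratio of Z138 to Mino of 2.865 in the control pair and -3.077 in the hairpin pair. MIR671 had -5.673 and 1.612. Among the small nucleolar RNAs, SNORA15 had 3.779 and -4.342, SNORA21 had 5.71 and -4.924, and SNORA22 had 1.606 and -4.435. SNORA26 had 5.077 and -5.755, and SNORA34 had 3.609 and -4.351. SNORA44 had -1.343 and 5.031, SNORA61 had 1.697 and -7.375, SNORA84 had 4.0 and -5.46, and SNORD89 had 6.048 and -6.82. SNORA21, for example, was listed at 0 FPKM in the Mino control and the Z138 hairpin library and at 29.3 and 51.3 in the other 2.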

How the results depend on the processing

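The counts of symbols past a fold depended on the pseudocount and the filter. With a pseudocount of 5, 730 symbols were at least 2-fold higher and 1164 lower in Z138, and 118 and 230 at 4-fold; with 0.1, 518 were at least 4-fold higher. With a mean of at least 5 FPKM, 1386 were at least 2-fold lower, and 218 higher and 454 lower at 4-fold; fewer symbols enter that count. Centring on the median of all symbols gave 1673 higher and 1856 lower at 2-fold, against 1345 and 2188, and scaling to the same sum 1094 and 2532. The limma counts stayed within 1.5 times under each alternative run, and leaving out 1 library gave 2624 to 2988 higher and 3673 to 4109 lower, where the lone library of a line is assumed to vary like the rest. Of 279 named genes past 2-fold, 2723 of 2731 values over the alternatives kept their sign, but 90 values fell under 2-fold, in 55 of the genes (37 without the pseudocount of 5). With the hairpin pair in place of the control pair the log2 ratio turned for HIST1H2BN (0.076), MIR671 (1.61), SNORA21 (-4.92), SNORD89 (-6.82) and SNORD94 (0.37), among others. Of the symbols past 2-fold in the control pair, 28 of 1345 higher and 14 of 2188 lower ones did not keep their sign there. The histone median was 0.47 in the control pair and -0.01 with a mean of at least 5 FPKM. With no filter on low values, the interferon-stimulated median went from -0.94 to -0.35 and that of integrins and adhesion from -1.31 to -0.18. The memory and marginal zone median went from -1.79 to -0.50 and that of NF-kB targets from -1.62 to -1.23. The unfolded protein response median stayed at 1.11. With the vector as a term, the limma fit already compares the lines within each vector; the labels carry no replicate numbers for another block. With no read counts, the precision of low values is unknown.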

Other observations

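Among NLRP genes, receptors of the innate immune system, 3 had high levels in Mino. The list was written after the data had been seen. NLRP11 was at 209 and 235 FPKM in Mino, against 1.97 and 1.75 in Z138, NLRP7 at 47.8 and 43.7 in Mino, against 0.191 and 0.136 in Z138, and NLRP4 at 17.5 and 16.4 in Mino, against 0.0636 and 0.123 in Z138. These 3 genes were at least 2-fold lower in Z138 of 5 tested, and NLRP6 was higher, at 0.191 and 0.215 FPKM in Mino, against 6.63 and 7.89 in Z138. NLRP1 was alike in both lines.

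Single members of signalling families also stood apart. The insulin receptor gene INSR was at 0.0203 and 0.0177 FPKM in Mino, against 9.36 and 9.32 in Z138, and the mTOR inhibitor DEPTOR at 0.260 and 0.697 in Mino, against 10.8 and 14.1 in Z138. TCL1B, a relative of TCL1A, went the other way from it, with 1.86 and 2.21 FPKM in Mino and 21.3 and 17.1 in Z138. The WNT ligand WNT10A was at 108 and 76.8 FPKM in Mino, against 18.9 and 15.3 in Z138, and WNT10B at 1.98 and 1.29 in Mino, against 32.5 and 23.8 in Z138. GSDMD, which forms the pore of pyroptosis, was at 28.2 and 31.2 FPKM in Mino, against 1.33 and 1.23 in Z138. HOXA7 was at 9.70 and 10.2 FPKM in Mino, against 0.0510 and 0.0362 in Z138, and CUX2 at 0.899 and 1.03 in Mino, against 25.5 and 21 in Z138. DNMT3A, which writes DNA methylation, was at 42.9 and 37.2 FPKM in Mino, against 8.38 and 8.17 in Z138.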
